A study of Mus musculus with 47 samples.

Results

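Solute carriers are the membrane proteins that move amino acids, sugars, nucleosides, vitamins, metal ions and metabolic intermediates across the plasma membrane and the membranes of organelles. The genes described here were chosen by symbol and by level on mouse Illumina arrays. A gene was taken if its symbol in the probe table starts with Slc and a digit and if its brightest probe had a mean intensity over 100 across the 39 arrays of the main set. The glucose and lactate carrier genes Slc2a1, Slc2a3, Slc16a1 and Slc16a3 were left out by name. This gave 74 genes of the 322 that had a probe of their own once those 4 were set aside, out of 16593 named genes on the array. The mean over 39 arrays selected the members, so the levels themselves are a description. Just inside the minimum lay Slc6a9 at 119.7, Slc35e2 at 112.6 and Slc25a44 at 107.9, and just outside it Slc30a7 at 99.25, Slc27a2 at 92.76 and Slc2a8 at 92.19.

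The cells were mouse embryonic stem cells of 4 lines, 1 line per genotype. Besides wild type (WT) these were Tcf7l1-/- (KO), Tcf7-/- Tcf7l2-/- Lef1-/- (3XKO) and a line lacking all 4 of these TCF/LEF factors (4XKO), which bind DNA and carry the signal of beta-catenin in the Wnt pathway. Naive cells (ESC) had 1 uM PD0325901, an inhibitor of MEK, 3 uM CHIR99021, an inhibitor of Gsk3, and LIF at 1000 U/mL. Epiblast-like cells (EpiLC) had Fgf2 at 12 ng/mL, and EpiLC+CH received CHIR99021 at 3 uM for 24 hours after 3 days of Fgf2. WT cells alone were also kept in Fgf2 and CHIR99021 together throughout (ContinuedCH). These 13 groups had 3 arrays each, and every medium was based on N2B27. A second set of 8 WT arrays, normalized apart from the first, used the same doses. It held 3 arrays of cells in LIF+PD, 3 of cells that had 24 hours of LIF+PD and then 48 hours with CHIR99021 at 3 uM added, and 1 each of LIF+CHIR and PD+CHIR. Because each genotype is 1 line, p-values rest on how far arrays of a line scatter, and the lost factor and other differences of a line cannot be told apart. Time in Fgf2 is not given for untreated EpiLC, so culture time and CHIR99021 cannot be told apart in EpiLC+CH. ESC and untreated EpiLC differ in PD0325901, CHIR99021, LIF and Fgf2 at once. The change of state and direct effects of these additions therefore cannot be told apart.

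Carriers of the Slc1, Slc6, Slc7 and Slc38 families supply amino acids, which feed protein synthesis, the mTORC1 sensor and one-carbon metabolism. The Slc25 family lies mostly in the inner mitochondrial membrane and links the cytosol to fatty acid oxidation, the citric acid cycle and nucleotide pools. Slc30 and Slc39 proteins move zinc in opposite directions, Slc40a1 (ferroportin) exports iron, and Slc28 and Slc29 proteins carry nucleosides. Many Slc35 proteins load nucleotide sugars into the Golgi and the endoplasmic reticulum. Naive mouse pluripotent cells are known for active mitochondrial oxidation, and they shift their metabolism as they move toward the epiblast state.

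The labelled states were checked against marker genes. The summed intensity of 6 naive markers was 23000 to 25700 in WT ESC and 2840 to 3210 in WT EpiLC, and that of 4 epiblast-like markers was 1490 to 1630 against 19200 to 21400. In KO EpiLC and 4XKO EpiLC the naive sum stood at 14800 to 15200 and 14400 to 16000, so these cells carry the EpiLC label with high naive markers. All 4 general pluripotency markers were above background in every group. Among markers of other cell types, the fibroblast sum (6 genes, 2 above background, Thy1 and Dcn) was 227 to 245 in WT EpiLC and 14.6 to 27.0 in WT ESC. The extraembryonic endoderm sum (7 genes, mostly Dab2) was 196 to 220 against 130 to 145, and the trophoblast sum (6 genes, mostly Tfap2c) 571 to 633 against 2040 to 2460. Whether these signals had a part in the differences below was not tested. A lower level in a bulk array can reflect fewer cells of a kind or less RNA per cell, which cannot be told apart here. In 3XKO the median of the 243 well-measured genes on chromosome 1 lay 0.50 above WT on the log2 scale in both ESC and EpiLC, and that of the 260 on chromosome 6 lay at -0.21 and -0.24. In KO the chromosome 6 median lay at 0.18 in ESC and 0.19 in EpiLC, the highest of any chromosome in that line. The chromosome medians of 4XKO ranged from -0.09 to 0.09.

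Variation across the 13 groups differed widely among the 74 genes. The median range of group means was 1.24 on the log2 scale, against 0.90 for all 5084 genes over the same minimum, and 31 members ranged over less than 1. The steadiest were the mitochondrial phosphate carrier gene Slc25a3 (a range of 0.31), the Golgi zinc transporter gene Slc30a5 (0.32), the adaptor gene Slc4a1ap (0.33), the nucleotide transporter gene Slc35b1 (0.36) and Slc12a3 (0.38). At the other end 7 members ranged over more than 3, led by Slc52a3 at 6.35 and Slc1a3 at 5.01. In 59 members every group mean was over 100. The other 15 passed through the groups in which they were high, so a difference is built into their choice. They are Slc1a3, Slc4a2, Slc6a9, Slc7a7, Slc15a4, Slc16a9, Slc17a9, Slc25a44, Slc29a4, Slc35e2, Slc35f2, Slc40a1, Slc46a3, Slc47a1 and Slc52a3. The p-values and gaps between groups given for them below describe that difference and are no support apart from the choice. No member was below the background limit of 13.6 in all 3 arrays of any of the 13 groups.

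**Figure D1:**
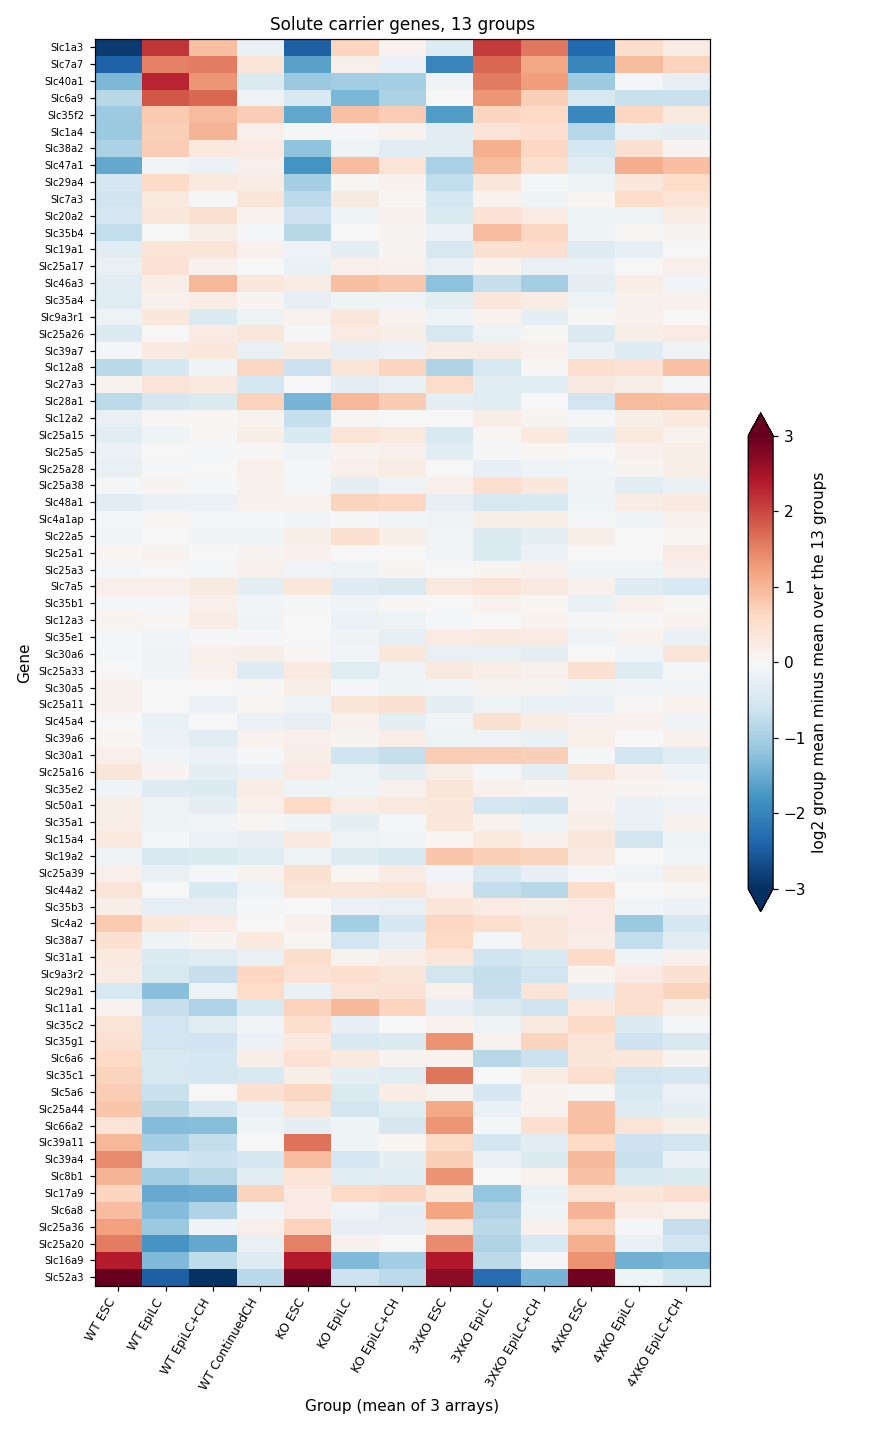
Log2 group mean of each of the 74 genes minus that gene's mean over the 13 groups (colour), with groups of 3 arrays in columns and genes ordered by the WT EpiLC minus WT ESC difference. Slc52a3 and Slc16a9 at the bottom are high in the ESC columns of all 4 lines, while Slc1a3, Slc7a7, Slc40a1 and Slc6a9 at the top are high in WT and 3XKO EpiLC.

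Promoters are shown for 4 genes that differed between WT ESC and WT EpiLC of the main set, 2 higher in ESC and 2 higher in EpiLC. The RefSeq promoter table (build GRCm38.p6, 250 bases before to 50 after the listed start) held 54 of the 74 genes. Each window was searched on both strands for the TCF/LEF core CTTTGA, the orphan nuclear receptor half-site AAGGTCA and the Klf box GGGNGTGG, and capitals mark a match. The sequences run 5′ to 3′ on the strand of the gene.
Slc25a20, chr9:108661886-108662185, plus strand: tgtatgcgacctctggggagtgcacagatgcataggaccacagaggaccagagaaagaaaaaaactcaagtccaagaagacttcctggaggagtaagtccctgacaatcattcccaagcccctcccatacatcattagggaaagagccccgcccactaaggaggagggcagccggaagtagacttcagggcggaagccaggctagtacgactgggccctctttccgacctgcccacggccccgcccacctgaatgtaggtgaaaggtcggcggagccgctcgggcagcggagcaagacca
Slc25a36, chr9:97110992-97111291, minus strand: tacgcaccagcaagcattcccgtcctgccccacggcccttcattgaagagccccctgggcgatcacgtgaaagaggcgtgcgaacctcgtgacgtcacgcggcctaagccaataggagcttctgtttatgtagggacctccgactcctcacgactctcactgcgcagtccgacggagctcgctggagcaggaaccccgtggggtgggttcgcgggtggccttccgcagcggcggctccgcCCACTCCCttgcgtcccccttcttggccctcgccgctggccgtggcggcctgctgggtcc
Slc1a3, chr15:8710758-8711057, minus strand: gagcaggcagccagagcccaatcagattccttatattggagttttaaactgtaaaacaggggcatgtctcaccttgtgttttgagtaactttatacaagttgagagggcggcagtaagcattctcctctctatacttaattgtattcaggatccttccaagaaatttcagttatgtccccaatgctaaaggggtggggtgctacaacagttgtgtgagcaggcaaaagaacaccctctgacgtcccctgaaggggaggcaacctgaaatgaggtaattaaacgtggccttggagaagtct
Slc7a7, chr14:54417895-54418194, minus strand: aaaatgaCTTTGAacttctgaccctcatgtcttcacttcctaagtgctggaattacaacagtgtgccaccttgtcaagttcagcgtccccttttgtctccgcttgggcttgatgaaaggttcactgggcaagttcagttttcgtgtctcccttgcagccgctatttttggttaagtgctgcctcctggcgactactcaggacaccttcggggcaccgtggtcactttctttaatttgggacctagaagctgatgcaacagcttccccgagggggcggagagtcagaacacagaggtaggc
Slc25a36 held 1 Klf box, at position 241 of the window on the reverse strand, and Slc7a7 held 1 TCF/LEF core at position 8, with no overlap between motifs. Slc7a7 has 5 listed starts, of which the first is shown. Neither of the other two windows held any of the 3 motifs. The core CTTTGA was present in 10 of the 54 members (18.5%), in 12.2% of genes over the same minimum and in 16.2% of all 27025 promoters. AAGGTCA was in 2 members (3.70%, against 2.89% and 4.66%), and GGGNGTGG in 20 (37.0%, against 23.8% and 17.6%).

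The comparison of WT EpiLC with WT ESC followed solute carrier genes as cells left the naive state. Among the members that fell were the acylcarnitine carrier gene Slc25a20, the riboflavin carrier gene Slc52a3, the creatine carrier gene Slc6a8 and the zinc importer gene Slc39a4. Among those that rose were the glutamate carrier gene Slc1a3, the glycine carrier gene Slc6a9, the amino acid exchanger gene Slc7a7 and the iron exporter gene Slc40a1. In all 22 members rose and 28 fell, that is 29.7% and 37.8%. Over all probes 30.0% were called, and among the 5084 genes over the same minimum 34.9% rose and 31.5% fell, so the members' shares lie near that background. A member was called where its p in limma, after Benjamini-Hochberg adjustment across the 25697 probes, was under 0.05, and differences are log2 values ± SE with n = 3 arrays per group. The median difference was -0.07 for members and 0.04 for genes over the minimum.

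Amino acid carriers had 6 members higher and 3 lower of 10. Slc1a3, which takes up glutamate and aspartate, read 24.5, 24.7 and 18.4 in WT ESC and 751, 738.3 and 686.9 in WT EpiLC. Each EpiLC array was far above every ESC array, and the difference was 5.02 ± 0.15 (adjusted p = 5.38e-21). Slc7a7, a light chain that exchanges cationic for neutral amino acids, read 54, 55.1 and 61.6 in ESC and 817.8, 913.6 and 884.6 in EpiLC (3.94 ± 0.15, adjusted p = 2.78e-18). The glycine transporter gene Slc6a9 stood at 47.7, 57.4 and 48.4 in ESC and at 320.9, 346.4 and 321.9 in EpiLC (2.69 ± 0.25). The groups did not overlap for any of these genes. Slc1a3, Slc7a7 and Slc6a9 are among the members with a difference built into their choice. Slc1a4 and Slc38a2, carriers of small neutral amino acids, rose by 1.82 ± 0.14 and 1.68 ± 0.08. Another probe of Slc38a2 was not called in 4 comparisons in which its brightest probe was, as given below. Slc7a3, a carrier of cationic amino acids, went from 2965.5 ± 210.5 to 5440.8 ± 446.8 (mean ± SD, n = 3, a log2 difference of 0.87 ± 0.10). Slc7a5, the large neutral amino acid transporter that works with Slc3a2, was 2979.8, 3073.2 and 2539.9 in ESC and 2562.1, 3042.9 and 2928.8 in EpiLC, which overlap, and was not called (-0.01).

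The amino acid family also had members that fell, and these carry amino acid derivatives or work in lysosomes. Slc6a8, the creatine transporter, dropped from 1857.5, 1857.5 and 1777.2 to 428.3, 359.8 and 395 (-2.22 ± 0.12). Slc6a6, which takes up taurine, dropped from 4483, 4827.3 and 4181.6 to 2157.4, 2117.9 and 2227.5 (-1.05 ± 0.09). Slc38a7, a lysosomal glutamine transporter in human cells, fell by 0.58 ± 0.09 on the log2 scale. Of 18 listed genes of amino acid sensing, 7 rose and 3 fell, where 30.0% of all probes were called in either direction. Chac1 and Ddit4 rose by 3.68 ± 0.17 and 2.29 ± 0.17, while Asns, asparagine synthetase, was at -0.77 ± 0.11. In the list of one-carbon and glycine genes (14 listed, 10 measured) 3 rose and 2 fell, among them the glycine decarboxylase gene Gldc at 1.51 ± 0.08 and Mthfd2 at 1.76 ± 0.15.

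Mitochondrial carriers split, with 3 of 15 higher, 4 lower and a median of 0.04. Slc25a20, the carnitine and acylcarnitine translocase of fatty acid oxidation, read 6247.4, 5086.3 and 4870.9 in WT ESC and 498.5, 566.9 and 581.1 in WT EpiLC. All ESC arrays lay far above all EpiLC arrays (-3.29 ± 0.09, adjusted p = 3.69e-22). Slc25a36, a pyrimidine nucleotide carrier in human cells, read 1586.9, 1266.4 and 1536.4 against 225.6, 319.8 and 317.2 (-2.36 ± 0.16). Slc25a44, a carrier of branched-chain amino acids, went from 162.9, 204.1 and 162 to 46.3, 62.3 and 58.5 (-1.67 ± 0.18). All EpiLC arrays of these 3 genes lay below all ESC arrays, whereas the ADP/ATP carrier gene Slc25a5 differed by 0.20 ± 0.06 and the phosphate carrier gene Slc25a3 by 0.04, the latter not called. Slc25a17, a peroxisomal carrier, and Slc25a26, the S-adenosylmethionine carrier, rose by 0.66 ± 0.14 and 0.41 ± 0.11.

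Among carriers of vitamins, choline and nucleosides 3 of 8 rose and 4 fell. Slc52a3, a riboflavin transporter, read 1252.7, 1218.9 and 1263.5 in WT ESC and 18.1, 26.7 and 21.1 in WT EpiLC, close to the background limit. This was the largest change of any member (-5.84 ± 0.15, adjusted p = 1.86e-22). Of the flavin cofactor genes Rfk and Flad1, Flad1 fell as well (-0.90 ± 0.10). Slc5a6, which takes up biotin and pantothenate and is grouped with the sugar carriers by family number, read 986.6, 926.4 and 992 against 440, 305.8 and 349.5 (-1.42 ± 0.11). Slc29a1, the equilibrative nucleoside transporter ENT1, was at -0.78 ± 0.10, and Slc19a2, a thiamine transporter, at -0.37 ± 0.10. The reduced folate carrier gene Slc19a1 and Slc29a4, a monoamine carrier, went the other way at 0.69 ± 0.10 and 1.09 ± 0.10.

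Metal carriers had 2 of 10 higher and 4 lower. Slc40a1, the iron exporter ferroportin, read 56.4, 36.9 and 45.1 in WT ESC and 566.1, 573 and 566.4 in WT EpiLC (3.64 ± 0.15, adjusted p = 8.37e-18). Slc39a4, a zinc importer, read 2531.3, 2658.7 and 2995.8 against 709.3, 694.5 and 668.7 (-1.98 ± 0.11), and its relative Slc39a11 read 987.6, 895.7 and 905.9 against 222.4, 244.2 and 240.1 (-1.98 ± 0.10). The iron exporter was thus high in EpiLC and these 2 Slc39 carriers were high in ESC, with no overlap of arrays. Slc39a7, of the same family, was called higher in EpiLC (0.32), and Slc39a6 lay at -0.23. Slc11a1, a divalent metal transporter best known from macrophages, and the copper importer gene Slc31a1 were at -0.82 ± 0.22 and -0.71 ± 0.07. Among 9 listed genes of metal handling 2 rose and 3 fell, where 30.0% of all probes were called in either direction. The ferritin heavy chain gene Fth1 rose (0.80 ± 0.06), and the transferrin receptor gene Tfrc (-1.03 ± 0.15) and the metallothionein gene Mt1 (-0.59 ± 0.06) fell.

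The remaining families followed with smaller counts. Of 11 nucleotide sugar carriers 3 rose and 5 fell, with Slc35c1, the GDP-fucose transporter, falling from 916.4, 936.8 and 984.7 to 444.1, 437.7 and 413.9 (-1.13 ± 0.07). This group holds every Slc35 member by family number, whatever its substrate, and so includes Slc35b1, named above as a nucleotide transporter gene. Slc35f2 rose from 59.2, 72.6 and 61.6 to 213.8, 281.6 and 220.5 (1.88 ± 0.15), and Slc35b4, which carries UDP-sugars, by 0.75 ± 0.08. Slc17a9, the vesicular nucleotide transporter that loads ATP into vesicles, fell from 179.8, 187.5 and 136.8 to 36.5, 43.6 and 33.2 (-2.15 ± 0.14). Slc16a9, a member of the monocarboxylate transporter family, fell from 338.6, 358.5 and 379.9 to 23.2, 30.9 and 30.1 (-3.69 ± 0.18). Both stood well apart between the states. Of 9 ion and pH members 4 rose and 3 fell, and this group includes Slc9a3r1, Slc9a3r2 and Slc4a1ap, which share the symbol but encode scaffold or adaptor proteins. Slc8b1, the mitochondrial sodium-calcium exchanger, was at -2.04 ± 0.11, and the phosphate carrier gene Slc20a2 at 0.83 ± 0.12. Slc66a2 fell (-1.75 ± 0.12), and Slc47a1, an exporter of organic cations, rose (1.47 ± 0.12). Of 46 ABC transporter genes 6 rose and 12 fell, and of the 5 measured genes of the sodium pump and its regulators 1 rose and 4 fell. Over all probes 30.0% were called in either direction. Unlike the members, these lists and those of amino acid sensing, one-carbon, flavin and metal genes had no minimum intensity. Their shares therefore cannot be set beside those of the members.

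The same change was then followed in the mutant lines, by a test of whether EpiLC minus ESC differed from that of WT. Slc25a20 and Slc52a3 fell less, and Slc1a3 rose less, in KO and 4XKO than in WT. Slc17a9, which fell by 2.15 in WT on the log2 scale, stood at 0.34 in KO and -0.06 in 4XKO. Slc6a9, at 2.69 in WT, stood at -0.93 and -0.16, and Slc40a1, at 3.64 in WT, at 0.09 and 0.99. In KO 21 members differed upward and 13 downward, 45.9% of the 74, against 16.5% of all probes and 40.7% of genes over the minimum. In 4XKO 16 differed upward and 18 downward, also 45.9%, against 14.4% and 33.9%. The 3XKO line, in which Tcf7l1 is the one factor left, had 14 upward and 9 downward (31.1%, against 10.6% and 26.6%). Each of the 3 shares lay above that of genes over the minimum, a difference that was not tested. Across the 74 genes the change in KO correlated with that in WT at r = 0.74, in 4XKO at 0.84 and in 3XKO at 0.94. These are descriptions over genes, which are not independent, and the lines share no arrays.

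Slc40a1 shows the loss of the EpiLC rise. It read 69.2, 46.7 and 45.3 in KO ESC and 47.8, 55.7 and 66.1 in KO EpiLC, which overlap. The KO change differed from the WT change by -3.56 ± 0.21 (adjusted p = 2.05e-13). In 4XKO it read 50.6, 60.4 and 57.4 in ESC and 118.2, 108.4 and 107 in EpiLC, and the difference from the WT change was -2.66 ± 0.21. In 3XKO it stood at 106.6, 112 and 104 in ESC and 300.9, 356.5 and 375.2 in EpiLC (-1.97 ± 0.21). The gene lies on chromosome 1, which was shifted in 3XKO, and the part of that shift was not tested. Slc6a9 had a like pattern, with 70.7, 67.9 and 60.8 in KO ESC and 34, 32.2 and 38.3 in KO EpiLC, where EpiLC lay below ESC (-3.63 ± 0.36 against WT, adjusted p = 6.07e-09). Its difference in 4XKO was -2.85 ± 0.36. In 3XKO ESC its arrays were uneven at 113.2, 117.8 and 37.6, and the difference of -1.18 ± 0.36 (adjusted p = 0.0297) was lost when any of 7 single arrays was left out. Without 3XKO ESC replicate 1 it was -0.92, and without replicate 2 it was -0.89.

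Slc1a3 and Slc7a7 rose less in KO and 4XKO than in WT. Slc1a3 went from 22.6, 34.7 and 32.2 to 277.2, 240.7 and 245.4 in KO and from 29.3, 36.5 and 31.8 to 246.4, 216.9 and 238.3 in 4XKO. The differences from the WT change were -1.91 ± 0.21 and -2.17 ± 0.21. In 3XKO the ESC arrays already read 134.4, 134.3 and 104.7 and the EpiLC arrays 660.6, 750.3 and 682, so the smaller change (-2.53 ± 0.21) came with a higher start. Slc7a7 reached 312.7, 311.4 and 381 in KO EpiLC and 536.5, 706.4 and 528.6 in 4XKO EpiLC, from 73.1, 98.3 and 130.4 and from 90.4, 72 and 70.6. Its differences were -2.17 ± 0.22 and -1.02 ± 0.22, while 3XKO went from 74.1, 84.8 and 71.5 to 1174, 927.4 and 895.4 and was not called (-0.24). Slc1a4 differed by -1.80 ± 0.20 in KO, where 299, 369.6 and 373.8 in ESC and 360, 344.8 and 352.5 in EpiLC overlapped. Its differences in 3XKO and 4XKO were -1.08 ± 0.20 and -1.20 ± 0.20. In KO the ESC levels of Slc1a4 (1.05 ± 0.14) and Slc7a7 (0.78 ± 0.15) were above WT. So were those of Slc1a4 in 3XKO (0.76 ± 0.14) and Slc1a3 in 4XKO (0.54 ± 0.15). These smaller changes thus came in part with a higher start.

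Several carriers that were higher in WT ESC than in WT EpiLC stayed partly up in KO and 4XKO EpiLC. Slc25a20 read 1988.9, 2143.9 and 1954.3 in KO EpiLC, 1606, 1565.1 and 1661.1 in 4XKO EpiLC and 1044.6, 940.5 and 1012.7 in 3XKO EpiLC, all above the WT EpiLC arrays. Its change differed from that of WT by 1.90 ± 0.12, 2.02 ± 0.12 and 0.98 ± 0.12. Slc52a3 read 73.3, 81.6 and 79 in KO EpiLC and 110.6, 103.5 and 113.2 in 4XKO EpiLC, several times the WT level yet far under the ESC arrays, which read 956.8, 850.6 and 914.2 in KO and 876.1, 826.6 and 988.7 in 4XKO. The differences were 2.30 ± 0.21 and 2.81 ± 0.21, and 0.87 ± 0.21 in 3XKO. In 3XKO the EpiLC level of Slc52a3 was not called different from WT (0.16), and its ESC level was lower (-0.71 ± 0.15). Slc17a9 read 167.7, 156.9 and 159.7 in KO EpiLC, above the 131.1, 128.7 and 122.8 of KO ESC, and 165.6, 126.7 and 122.5 in 4XKO EpiLC. Its change differed by 2.49 ± 0.19 in KO and 2.09 ± 0.19 in 4XKO, and by 0.67 ± 0.19 in 3XKO. Neither its EpiLC nor its ESC level in 3XKO was called different from WT (0.35 and -0.32). Slc25a36 differed by 1.41 ± 0.23, 1.61 ± 0.23 and 1.19 ± 0.23 in KO, 4XKO and 3XKO. Its ESC level was below WT in these lines (-0.54 ± 0.16, -0.54 ± 0.16 and -0.87 ± 0.16). In 3XKO its EpiLC level was not called different from WT (0.31). Slc16a9 did not share the pattern of staying partly up in KO and 4XKO EpiLC. It fell to 34.3, 26.5 and 23.1 in KO EpiLC, and its change was not called different in KO (-0.04) or 3XKO (0.52), and was in 4XKO (0.90 ± 0.25), where ESC read 197.2, 176.6 and 159.4.

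**Figure D2:**
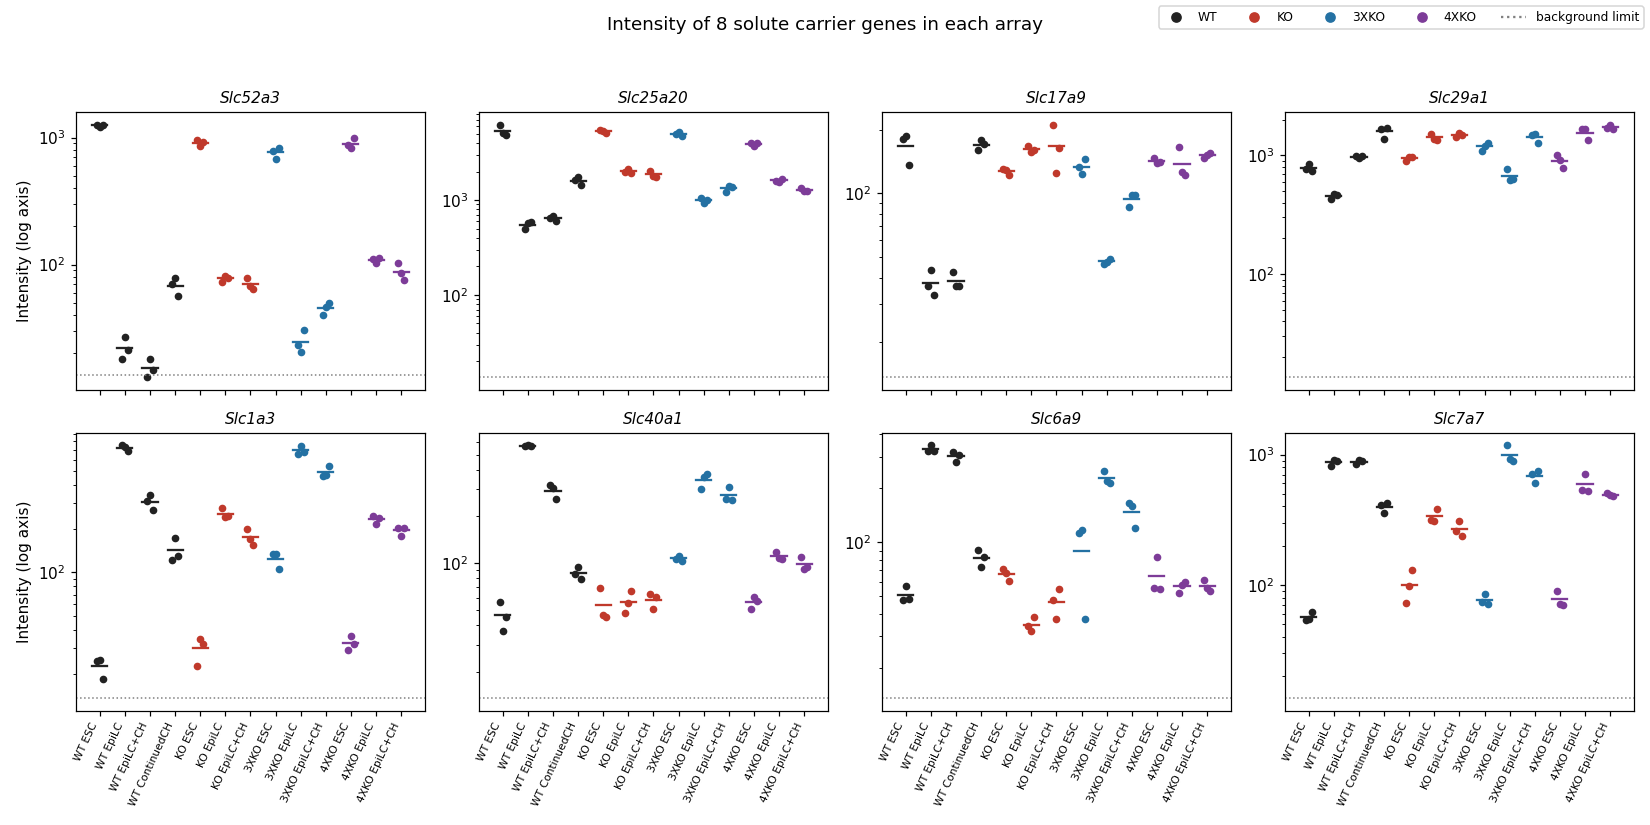
Intensity (log axis) of 8 genes in each of the 39 arrays, with groups along the x axis, 1 point per array, a bar for the group mean and a dotted line at the background limit of 13.6. In the upper row Slc52a3, Slc25a20, Slc17a9 and Slc29a1 are lower in WT EpiLC than in KO and 4XKO EpiLC, and in the lower row Slc1a3, Slc40a1, Slc6a9 and Slc7a7 are higher in WT and 3XKO EpiLC.

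Levels in EpiLC were next set against WT EpiLC in each line. KO EpiLC had 23 members higher and 17 lower (31.1% and 23.0%), where 21.8% of all probes were called and 26.6% of genes over the minimum rose and 23.5% fell. 4XKO EpiLC had 20 higher and 19 lower (27.0% and 25.7%, against 20.0%, 24.4% and 20.9%). With the spread taken from these groups only, 20 were higher and 10 lower. 3XKO EpiLC had 23 higher and 9 lower (31.1% and 12.2%, against 18.8%, 23.2% and 21.3%). All of these comparisons, and that with ContinuedCH, use the same 3 WT EpiLC arrays, so likeness between them is partly built in. Naive markers were high in KO and 4XKO EpiLC, as given above, and other markers moved too. The fibroblast sum was 50.2 to 68.1 in KO and 44.0 to 66.3 in 4XKO, with Dcn below background in both and Thy1 at 49.0 and 46.7 against 141 in WT EpiLC. The endoderm sum was 56.5 to 95.1 and 41.3 to 89.2, with Dab2 at 35.6 and 23.9 against 184. The trophoblast sum was 1380 to 1420 and 1170 to 1230, with Tfap2c at 1330 and 1140 against 551. The part of these markers was not tested.

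Amino acid carriers were mostly lower in KO EpiLC, 7 of 10 with 2 higher and a median of -0.64. In 4XKO 7 were lower and 2 higher (median -0.55), and in 3XKO 1 was lower and 2 higher (median 0.01). Among genes over the minimum 23.5%, 20.9% and 21.3% were lower in KO, 4XKO and 3XKO, and 26.6%, 24.4% and 23.2% higher. Slc1a3, Slc7a7 and Slc6a9, lower in KO and 4XKO, are among the members with a difference built into their choice. Slc6a9 was at -3.25 ± 0.25 in KO, -2.54 ± 0.25 in 4XKO and -0.54 in 3XKO, the last not called. Slc38a2, a sodium-coupled carrier known to rise when amino acids are short, read 1437.5, 1277.7 and 1288.2 in KO EpiLC against 2326.3, 2551.3 and 2461.4 in WT (-0.88 ± 0.08). It was at -0.27 ± 0.08 in 4XKO and 0.34 ± 0.08 in 3XKO, where it read 3180.2, 3227.7 and 2887.1. Slc7a5 read 2016.8, 1905.3 and 1953.1 in KO and 1868.4, 2163.7 and 1887.5 in 4XKO, below all WT arrays (-0.54 ± 0.10 and -0.53 ± 0.10), and was not called in 3XKO (0.26). The exceptions were Slc6a8, at 862.2, 898.7 and 896.2 in KO and 1167.7, 1035.9 and 1180.3 in 4XKO (1.17 ± 0.12 and 1.52 ± 0.12), and the taurine transporter gene Slc6a6 (0.72 ± 0.09 and 0.76 ± 0.09). The taurine and creatine carriers thus lay above WT while the amino acid carriers named here lay below it. Slc6a6 lies on chromosome 6, whose median was above WT in KO, and the part of that shift was not tested. In the amino acid sensing list 7 of 18 genes were lower and 2 higher in both KO and 4XKO, with Chac1 at -3.26 ± 0.17 and -2.39 ± 0.17. Over all probes 21.8% were called in KO and 20.0% in 4XKO, in either direction. Gldc, which breaks down glycine, was at -1.73 ± 0.08 in KO and -0.98 ± 0.08 in 4XKO.

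Nucleoside, vitamin and metal carriers differed in both directions. Slc29a1 read 1509.4, 1380 and 1351.3 in KO EpiLC and 1654.2, 1661.1 and 1353.4 in 4XKO EpiLC against 431.4, 469.8 and 460.3 in WT (1.64 ± 0.10 and 1.77 ± 0.10). Slc28a1, which takes up pyrimidine nucleosides with sodium, read 1073.1, 717.2 and 736.3 in KO and 806.6, 954.7 and 675.7 in 4XKO against 275.2, 316.4 and 290.9 (1.49 ± 0.16 and 1.45 ± 0.16). Both plasma membrane nucleoside carriers were above every WT array in these lines. In 3XKO Slc29a1 was at 0.57 ± 0.10 and Slc28a1 was not called (0.15). The folate carrier gene Slc19a1 was lower in KO and 4XKO (-0.68 ± 0.10 and -0.62 ± 0.10), while the folate receptor gene Folr1, from the one-carbon list, was higher (1.46 ± 0.15 and 1.33 ± 0.15). Slc11a1 read 3715.1, 3416.6 and 3822.1 in KO and 2655.4, 2403.9 and 2798.7 in 4XKO against 942.6, 1214.5 and 1304.9 in WT (1.67 ± 0.22 and 1.19 ± 0.22). Slc40a1 was at -3.34 ± 0.15 in KO, -2.36 ± 0.15 in 4XKO and -0.73 ± 0.15 in 3XKO. The ferritin gene Fth1 was at -0.90 ± 0.06 in KO and -0.82 ± 0.06 in 4XKO.

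Other carriers separated the lines further. Slc4a2, a chloride-bicarbonate exchanger, read 69.5, 49.7 and 64.9 in KO EpiLC and 45.9, 59.1 and 68.9 in 4XKO EpiLC against 171.5, 161.9 and 136.6 in WT (-1.36 ± 0.12 and -1.45 ± 0.12). In 3XKO it read 181.7, 160.6 and 186.3 and was not called (0.17). Slc47a1 was higher in all 3 mutant lines, at 168.4, 214.9 and 240.7 in KO, 208.7, 216 and 214 in 3XKO and 245.1, 224.6 and 232 in 4XKO against 108.9, 104.6 and 101.4 in WT (0.97 ± 0.12, 1.02 ± 0.12 and 1.16 ± 0.12). Slc66a2 was also higher in all 3, by 1.20 ± 0.12, 1.27 ± 0.12 and 1.71 ± 0.12. The zinc exporter gene Slc30a1 was at -0.52 ± 0.16 in KO, -0.51 ± 0.16 in 4XKO and 0.80 ± 0.16 in 3XKO. Its call was lost in KO without WT EpiLC replicate 1 (-0.47) or KO EpiLC replicate 1 (-0.45), and in 4XKO without 4XKO EpiLC replicate 2 (-0.32) or WT EpiLC replicate 1 (-0.46) or 3 (-0.49).

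The 11 Slc35 members were grouped as nucleotide sugar carriers by family number, whatever their substrate. In 3XKO EpiLC 6 of them were higher and 0 lower, with a median of 0.45. Among genes over the minimum 23.2% were higher, and their median was 0.01. Markers moved in the same comparison. The endoderm marker Gata6 averaged 151 against 18.4 in WT EpiLC, and the naive markers Zfp42 and Klf2 1350 and 351 against 468 and 86.7. In the endoderm list Dab2 averaged 247 against 184, and Gata4, Sox7, Sox17, Foxa2 and Afp were below background in 3XKO EpiLC. Tfap2c, from the trophoblast list, averaged 1860 against 551, and 2250 in WT ESC. Elf5, Eomes and Hand1 of that list were below background in 3XKO EpiLC, and Krt7 and Gata3 averaged 24.7 and 33.6 against 20.2 and 9.17. Over whole lists the endoderm sum was 396 to 452 against 196 to 220, the trophoblast sum 1810 to 2050 against 571 to 633, the naive sum 4620 to 5520 against 2840 to 3210 and the fibroblast sum 113 to 117 against 227 to 245. Their part was not tested. In KO and 4XKO EpiLC 0 of the 11 were called in limma, with medians of 0.06 and 0.01, and 3 of them in KO and 1 in 4XKO had an unadjusted p under 0.05. Slc35b4 read 598.5, 659.8 and 661.9 in 3XKO against 382.8, 319.7 and 327.5 in WT (0.90 ± 0.08). Slc35g1 read 223, 241.3 and 224.9 against 146.3, 142.9 and 152 (0.64 ± 0.13), and Slc35c1 read 585.5, 659.1 and 579.2 against 444.1, 437.7 and 413.9 (0.49 ± 0.07). All 3 were above every WT array. Slc35b4 lies on chromosome 6, whose median was below WT in 3XKO. Slc19a2, on chromosome 1, read 1622.8, 1939.2 and 2105.4 against 914.7, 777.4 and 826.6 (1.16 ± 0.10), and Slc30a1 lies on that chromosome too. Whether the chromosome 1 shift had a part in these was not tested. Slc46a3, a lysosomal carrier, was lower in 3XKO at 90.6, 92.3 and 79.5 against 153.3, 168.3 and 161.3 (-0.88 ± 0.12), as was the choline transporter-like gene Slc44a2 (-0.72 ± 0.10). The mitochondrial citrate carrier gene Slc25a1 was at -0.50 ± 0.08.

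**Figure D3:**
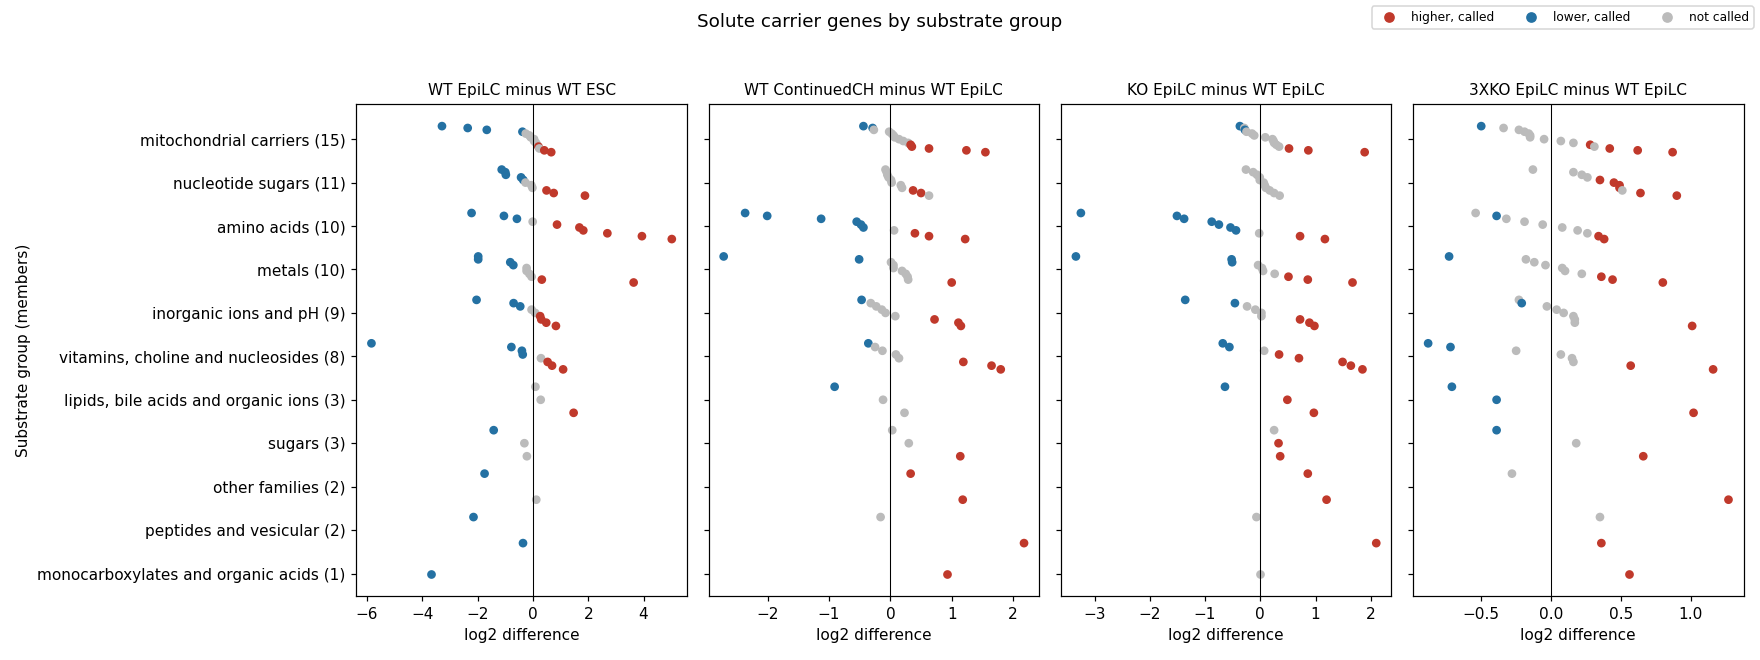
Log2 difference (x axis, a scale of its own in each panel) of every member, by substrate group with the number of members in brackets, in 4 comparisons. Red points were called higher, blue lower and grey not called. Amino acid carriers lie mostly to the right in WT EpiLC minus WT ESC (6 of 10 higher) and to the left in KO EpiLC minus WT EpiLC (7 of 10 lower). In the nucleotide sugar group, which is the Slc35 family, 6 of 11 members are higher in 3XKO EpiLC.

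Naive cells of the mutant lines were set against WT ESC. KO ESC had 9 members higher and 12 lower (12.2% and 16.2%, where 9.39% of all probes were called, and 12.6% of genes over the minimum rose and 13.7% fell). 3XKO ESC had 18 higher and 10 lower (24.3% and 13.5%, against 14.2%, 17.2% and 16.2%). 4XKO ESC had 11 higher and 9 lower (14.9% and 12.2%, against 5.65%, 8.32% and 6.43%), and without WT ESC replicate 3 it had 12 in all. With the spread taken from the compared groups only, 10 members were called in KO ESC and 3 in 4XKO ESC. In KO ESC Slc1a4 was higher (1.05 ± 0.14), as were Slc7a7 (0.78 ± 0.15) and Slc39a11, at 1474.9, 1408.6 and 1437.5 against 987.6, 895.7 and 905.9 (0.63 ± 0.10). Slc66a2 and Slc6a8 were lower (-0.69 ± 0.12 and -0.67 ± 0.12). In 3XKO ESC Slc1a3 was higher (2.47 ± 0.15), and Slc40a1, Slc35c1 and Slc19a2 were higher by 1.24 ± 0.15, 0.95 ± 0.07 and 0.93 ± 0.10. Slc40a1 and Slc19a2 lie on the shifted chromosome 1, whose part was not tested. Slc35c1 read 1903.2, 1775.7 and 1804.7 there against 916.4, 936.8 and 984.7 in WT. Slc46a3 was lower in 3XKO ESC as in 3XKO EpiLC, at 66.9, 50.7 and 63.5 against 115.1, 111.2 and 108.8 (-0.90 ± 0.12). In 4XKO ESC Slc12a8 read 457.9, 355.6 and 495.6 against 187.7, 199.3 and 151.5 (1.28 ± 0.11) and Slc47a1 read 92.1, 84.3 and 83.3 against 37.9, 43.9 and 32.7 (1.19 ± 0.12). Slc16a9 was lower (-1.02 ± 0.18).

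CHIR99021 was then added to WT EpiLC for 24 hours. The nucleoside carrier gene Slc29a1, the pyrimidine nucleotide carrier gene Slc25a36, the lysosomal carrier gene Slc46a3 and the multivitamin carrier gene Slc5a6 rose. The glutamate carrier gene Slc1a3, the iron exporter gene Slc40a1, the scaffold gene Slc9a3r1 and the riboflavin carrier gene Slc52a3 fell. Of the 8 carriers of vitamins, choline and nucleosides 2 rose and 2 fell. In all 6 members rose and 8 fell (8.11% and 10.8%), where 6.51% of all probes were called and 8.24% of genes over the minimum rose and 7.95% fell. Slc29a1 went from 431.4, 469.8 and 460.3 to 980.5, 949.8 and 984.7 (1.10 ± 0.10, adjusted p = 6.61e-09). Slc25a36 went from 225.6, 319.8 and 317.2 to 524.9, 669.4 and 534.9 (1.01 ± 0.16), and Slc46a3 from 153.3, 168.3 and 161.3 to 302.1, 291.7 and 247.3 (0.80 ± 0.12). Each treated array lay above each untreated one. Slc5a6 rose by 0.67 ± 0.11. Slc1a3 fell from 751, 738.3 and 686.9 to 309.9, 344.3 and 269.2 (-1.24 ± 0.15), Slc40a1 from 566.1, 573 and 566.4 to 317.4, 304.1 and 257.9 (-0.96 ± 0.15), and Slc9a3r1, which tethers membrane proteins to the cytoskeleton, from 988.2, 1001.7 and 1033.3 to 616.2, 582.1 and 584.7 (-0.76 ± 0.07). The amino acid carrier genes Slc38a2 and Slc7a3 fell too (-0.44 ± 0.08 and -0.34 ± 0.10). The calls of 5 of the 14, Slc12a8, Slc25a16, Slc52a3, Slc6a8 and Slc7a3, were each lost without any of 4 or 5 single arrays, and without WT EpiLC replicate 3 the count was 9. It was 8 with the spread taken from the compared groups only. Slc52a3 (-0.52 ± 0.15) was close to background, with 1 treated array at 13 under the limit.

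In the mutant lines the response to CHIR99021 was tested against that of WT. KO EpiLC had 2 members higher and 1 lower with CHIR99021 (2.70% and 1.35%, where 0.934% of all probes were called and 1.02% and 1.77% of genes over the minimum). With cyclic loess normalization 2 were higher and 2 lower, with KO EpiLC replicates 2 and 3 averaged 1 was called, and with the spread taken from the compared groups only 0 were. Leaving out KO EpiLC replicate 2 or 3, or KO EpiLC+CH replicate 2 or 3, left 1. 3XKO EpiLC had 13 higher and 7 lower (17.6% and 9.46%, against 5.85%, 8.06% and 6.90%), and 4XKO EpiLC 6 higher and 4 lower (8.11% and 5.41%, against 2.16%, 2.18% and 3.66%). The 4XKO count fell to 2 without 4XKO EpiLC replicate 2 or 3 or 4XKO EpiLC+CH replicate 2, and to 3 without EpiLC+CH replicate 3. All 10 of its calls were lost without at least 1 single array. With the spread taken from the compared groups only, 6 members were called in 3XKO and 0 in 4XKO. Of the 6 members higher in WT, 5 were among the 13 higher in 3XKO (83.3% and 38.5%), and of the 8 lower in WT, 3 were among the 7 lower in 3XKO (37.5% and 42.9%). Across the 74 genes the responses of KO, 3XKO and 4XKO correlated with that of WT at r = 0.35, 0.54 and 0.10, as a description.

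Slc29a1 and Slc25a36 rose in WT and 3XKO and not in KO or 4XKO. Other members that rose in WT did so in KO or 4XKO as well. Slc5a6 rose by 0.67 ± 0.11 in KO and 0.62 ± 0.11 in 3XKO, and was not called in 4XKO (0.29). Slc12a8, at 0.42 ± 0.11 in WT, rose by 0.51 ± 0.11 in 3XKO and 0.45 ± 0.11 in 4XKO, and was not called in KO (0.27). Slc29a1 went from 773.4, 624.4 and 630.5 to 1495.3, 1516.9 and 1272.6 in 3XKO (1.08 ± 0.10). In KO it read 1509.4, 1380 and 1351.3 without and 1431.5, 1530.7 and 1477 with CHIR99021, which overlap. Its response differed from WT by -1.03 ± 0.14 in KO and -0.94 ± 0.14 in 4XKO (adjusted p = 2.46e-05 and 8.11e-05), and in 3XKO the difference was not called (-0.02). The untreated levels in KO and 4XKO already lay above the treated WT arrays. Slc25a36 differed by -1.02 ± 0.23 in KO and by -1.66 ± 0.23 in 4XKO, where it fell from 551.3, 678.4 and 559.4 to 413, 388.5 and 342.3 (-0.64 ± 0.16). Slc46a3 rose in WT alone of the 4 lines, and its response differed by -0.87 ± 0.17 in KO, -1.12 ± 0.17 in 3XKO and -1.08 ± 0.17 in 4XKO. It read 306.3, 241.3 and 241.5 without and 249.9, 237.7 and 259.9 with CHIR99021 in KO, and 90.6, 92.3 and 79.5 against 69.8, 71.6 and 67.9 in 3XKO.

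Members that fell with CHIR99021 in WT were followed in the same way. The response of Slc40a1 differed from WT by 1.01 ± 0.21 in KO and 0.78 ± 0.21 in 4XKO, and that of Slc9a3r1 by 0.54 ± 0.10 and 0.66 ± 0.10. For Slc40a1 the untreated KO arrays lay near the level of naive cells, and the 4XKO call was lost without any of 6 single arrays, at 0.70 to 0.79. Slc1a3 differed by 0.98 ± 0.21 in 4XKO, and by 0.70 in KO and 0.73 in 3XKO, neither of them called. A pair of genes rose in 3XKO and not in WT. Slc52a3 went from 23.2, 20.4 and 30.3 to 40, 46.1 and 50.2 (0.90 ± 0.15, a difference from WT of 1.42 ± 0.21), and Slc17a9 from 46.4, 47.7 and 49.3 to 86.5, 98 and 98.2 (0.98 ± 0.14, a difference of 0.94 ± 0.19). The difference tests called 2 members upward and 4 downward in KO (8.11% of 74, against 2.04% of all probes and 5.72% of genes over the minimum). In 3XKO they called 2 each way (5.41%, against 0.693% and 1.95%), and in 4XKO 7 upward and 5 downward (16.2%, against 4.34% and 10.7%). The 3XKO count was 1 with the spread taken from the compared groups only. The 4XKO count was 7 without WT EpiLC replicate 1 or 4XKO EpiLC replicate 2.

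**Figure D4:**
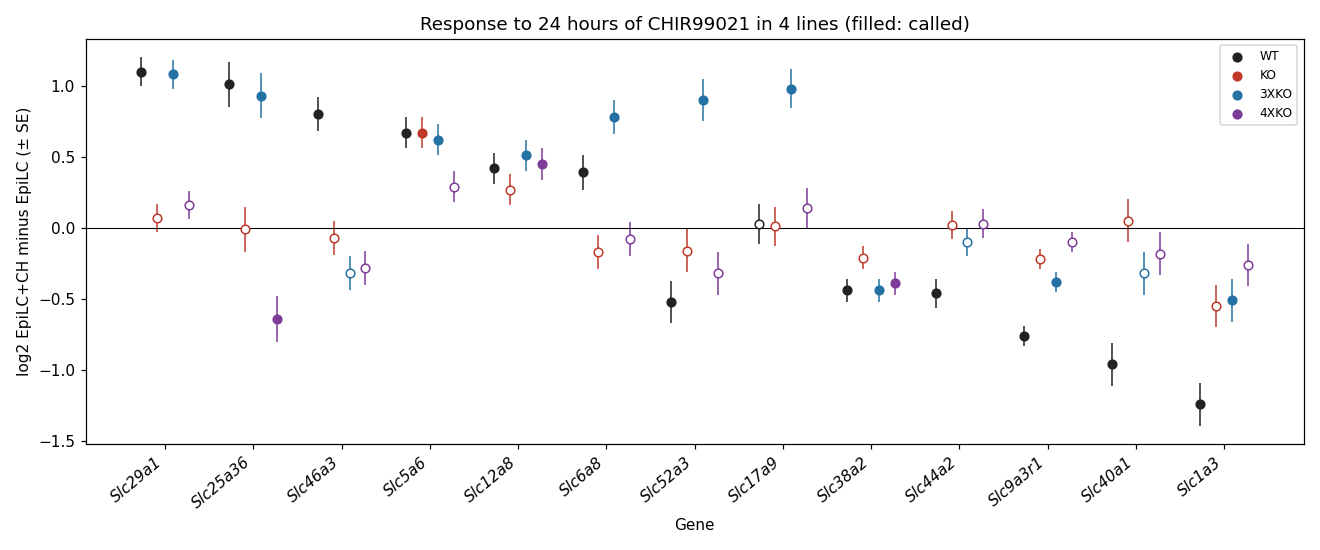
Log2 difference of EpiLC+CH minus EpiLC (y axis, ± SE, 3 arrays per group) for 13 genes in the 4 lines, with filled points for called differences. Slc29a1 and Slc25a36 lie near 1 in WT and 3XKO and near or below 0.16 in KO and 4XKO, and Slc52a3 and Slc17a9 are called higher in 3XKO only.

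WT cells kept in CHIR99021 and Fgf2 throughout were also set against WT EpiLC. In ContinuedCH 22 members were higher and 13 lower (29.7% and 17.6%), where 19.2% of all probes were called and 23.7% of genes over the minimum rose and 18.9% fell. Amino acid carriers had 3 higher and 6 lower of 10 (median -0.46), and mitochondrial carriers 5 higher and 2 lower of 15. Slc17a9 read 160.6, 178.7 and 170.7 (2.18 ± 0.14), and Slc29a1 read 1680.4, 1370.8 and 1714.4 (1.80 ± 0.10). Slc25a20 read 1612.8, 1742.7 and 1452.6 (1.55 ± 0.09), and Slc52a3 read 69.9, 78.4 and 56.9 (1.65 ± 0.15). These 4 lay above every WT EpiLC array. Slc40a1 read 85.7, 94.4 and 78.8 (-2.72 ± 0.15), Slc1a3 122.5, 172.1 and 130.5 (-2.37 ± 0.15), and Slc6a9 90.3, 72.5 and 83 (-2.01 ± 0.25). Slc7a7 was at -1.13 ± 0.15 and Slc27a3, of the fatty acid transport family, at -0.91 ± 0.12. After 24 hours of CHIR99021 Slc6a9 and Slc7a7 had not been called (-0.13 and 0.02), nor had Slc17a9 (0.03) or Slc25a20 (0.24). The naive marker sum was 14700 to 15600 in ContinuedCH and 6480 to 7620 in EpiLC+CH, and its part was not tested.

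CHIR99021 added to LIF+PD in WT cells changed 1 member. Slc16a9 read 10.2, 11.7 and 13.8 in LIF+PD, all below the background limit of 14.3 of that set, and 45.9, 46.6 and 56.5 with CHIR99021, which is at least 3.46-fold higher (adjusted p = 0.035). This is 1.35% of members in 1 direction, where 0.342% of all probes were called and 0.315% of genes over the minimum rose and 0.275% fell. The call was lost without any single array, with the floor at the background limit and with a block for replicate number. Slc5a6 read 666.1, 523.1 and 513.5 without and 1011.1, 1245.4 and 1050.2 with CHIR99021, which do not overlap, and Slc47a1 85, 88 and 100.4 against 40.1, 43.7 and 31.4. Neither passed the test (0.96, adjusted p = 0.131, and -1.26, adjusted p = 0.0906, limma with 3 arrays per group).

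Members were also compared by the likeness of their 13 group means, as a description over groups that share lines and media. Slc52a3 was most like Slc25a20 (r = 0.96) and Slc39a4 (0.91), and Slc16a9 most like Slc39a4 (0.92) and Slc25a44 (0.91). Slc40a1 and Slc6a9 were most like each other (0.93). Slc1a3 was most like Slc38a2 (0.92) and Slc7a7 (0.91), and Slc7a7 most like Slc35a4 (0.94). Slc47a1 was most like Slc7a3 and Slc25a15 (both 0.88), and Slc66a2 most like Slc6a8 (0.86). Other probes of a gene were compared where there were several. Of 11 members with another probe over the minimum, the brightest probe was called in 23 gene and comparison pairs, and the other probe was called the same way in 19 of them and the opposite way in none. The other 4 pairs, not called by the other probe, were all of Slc38a2.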

How the data were processed

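Expression was measured on Illumina mouse arrays, 47 in all, with 25697 probes, of which 23978 had 1 gene symbol and 1719 none. The deposited values are linear intensities that the authors had background-subtracted and quantile-normalized in 2 separate sets (39 and 8 arrays). This was read from negative values and near-identical sorted values within a set. The tools lumi and limma are named in the submitters' processing notes, without versions. The background limit is the size of the lowest deposited value, 13.6 and 14.3, and 44.5% to 44.6% of probes of the larger set lay above it.

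Values under 1, which were 31.2% to 32.1% of an array, were set to 1, and log2 values were quantile-normalized again within a set. A model of group means was fitted with limma 3.58.1 in R 4.3.3 over all groups of a set, and p-values were adjusted by Benjamini-Hochberg over all probes. The fit was tested on simulated data. Tables and plots were made in Python 3.11.15 with matplotlib 3.10.9. The number of arrays limits the precision. Groups follow the labels, which call the arrays biological triplicates.

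Members, gene lists and tests were chosen with earlier results of these data known. Members were named by rule, as the 12 called members with the largest rise and fall in a comparison and the 5 largest each way for a difference of responses, with others added for their role after their values were seen. Alternatives were the normalization, the floor, dim probes, the variance model, the groups in the fit, the probe choice, a replicate block and each array left out. Same-numbered arrays deviated together (every correlation over 0.1) in 3 comparisons, WT EpiLC+CH against EpiLC (0.259, 0.372 and 0.164), 4XKO against WT EpiLC (0.295, 0.448 and 0.147) and KO against WT ESC (0.232, 0.281 and 0.316).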

Additional observations from a re-analysis of the deposited data

Results flagged for a closer look

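Values below are the difference of 2 log2 changes, mutant line minus WT, with 3 arrays in each of the 4 groups. Each was listed because limma's test of the difference itself passed the threshold after adjustment over all probes. All differences from WT use the same WT arrays. Slc1a3, Slc4a2, Slc6a9, Slc7a7, Slc17a9, Slc29a4, Slc40a1, Slc46a3 and Slc52a3 are among the members with a difference built into their choice. The differences listed for them are no support apart from that choice.

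For the change from ESC to EpiLC in KO, the 5 named members with the largest negative differences were Slc6a9 (-3.63), Slc40a1 (-3.56), Slc7a7 (-2.17), Slc1a3 (-1.91) and Slc1a4 (-1.80), all amino acid carriers except the iron exporter Slc40a1. The 5 with the largest positive differences were Slc17a9 (2.49), Slc52a3 (2.30), Slc28a1 (2.08), Slc25a20 (1.90) and Slc66a2 (1.89). In 4XKO the negative differences were those of Slc6a9 (-2.85), Slc40a1 (-2.66), Slc1a3 (-2.17), Slc1a4 (-1.20) and Slc7a7 (-1.02). The positive ones were those of Slc52a3 (2.81), Slc17a9 (2.09), Slc25a20 (2.02), Slc25a36 (1.61) and Slc29a1 (1.57). In 3XKO they were Slc1a3 (-2.53), Slc40a1 (-1.97), Slc6a9 (-1.18), Slc27a3 (-1.16) and Slc1a4 (-1.08) on the negative side. On the positive side they were Slc25a36 (1.19), the zinc importer gene Slc39a4 (1.07), Slc25a20 (0.98), Slc52a3 (0.87) and Slc39a11 (0.84).

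For the response of EpiLC to CHIR99021 in KO, the nucleoside carrier Slc29a1 (-1.03), Slc25a36 (-1.02), Slc46a3 (-0.87) and Slc45a4 (-0.64) lay below the WT response, and Slc40a1 (1.01) and Slc9a3r1 (0.54) above it. In 3XKO Slc46a3 (-1.12) and Slc35b4 (-0.46) lay below it, and the riboflavin carrier Slc52a3 (1.42) and Slc17a9 (0.94) above it. In 4XKO Slc25a36 (-1.66), Slc46a3 (-1.08), Slc29a1 (-0.94), Slc25a20 (-0.57) and Slc45a4 (-0.45) lay below it. Slc1a3 (0.98), Slc40a1 (0.78), Slc4a2 (0.66), Slc9a3r1 (0.66) and Slc29a4 (0.52) lay above it.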

How the results depend on the processing

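Over 19 counts of called members, 146 of 156 values under the alternatives that keep all arrays stayed within 1.5 times the count reported, and no direction of the 277 named values was reversed. When the spread came from the compared groups only, 8 members were called for CHIR99021 in WT EpiLC, 10 for naive KO and 3 for naive 4XKO cells against WT, 0 in KO, 6 in 3XKO and 0 in 4XKO EpiLC with CHIR99021, and 1 in the 3XKO difference of CHIR99021 responses. That setting kept 194 of the 277 named calls. KO EpiLC arrays 2 and 3 lay close together, and with these averaged 1 member was called in KO EpiLC with CHIR99021. For LIF+PD the count was 0 with the floor at the background limit and 0 with the replicate block. The block moved no other count by over 1.5 times and kept 273 of the 277 named calls.

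Leaving out each array in turn gave 46 to 49 calls for WT EpiLC against ESC, 9 to 11 for CHIR99021 in WT and 29 to 33 for ContinuedCH. EpiLC against WT gave 37 to 41 in KO, 24 to 29 in 3XKO and 34 to 40 in 4XKO, and ESC 15 to 20, 24 to 26 and 12 to 19. CHIR99021 gave 1 to 3, 14 to 20 and 2 to 8 in KO, 3XKO and 4XKO. Differences of CHIR99021 responses gave 6 to 7, 3 to 4 and 7 to 13, and differences of the ESC to EpiLC change 31 to 35, 17 to 21 and 28 to 35. LIF+PD gave 0 each time. With 1 line per genotype and 3 arrays per group, small differences near the background limit are the least certain, and the causes of these shifts were not tested.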

Other observations

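LIF+CHIR and PD+CHIR had 1 array each, so their values carry no replicate check and enter no comparison. The iron exporter gene Slc40a1 read 8.3, below the background limit of that set, in LIF+CHIR and 99.2 in PD+CHIR, and 19.8, 12.4 and 15.5 in the 3 LIF+PD arrays. The glutamate carrier gene Slc1a3 read 153.7 in LIF+CHIR and 94.1 in PD+CHIR, and 21.4, 24.4 and 25.5 in LIF+PD. The riboflavin carrier gene Slc52a3 read 543 in LIF+CHIR and 115.4 in PD+CHIR, and 433.1, 387.8 and 411.4 in LIF+PD. The divalent metal transporter gene Slc11a1 read 2215.2 in LIF+CHIR and 991.7 in PD+CHIR. In LIF+PD Slc25a36 averaged 107.2, against 1463.2 in WT ESC and 287.5 in WT EpiLC of the main set. Slc6a9 averaged 360.3 there, against 51.2 and 329.7, and Slc16a9 11.9, against 359.0 and 28.1. These 3 thus lay nearer WT EpiLC, while Slc1a3 (23.8), Slc7a7 (128.2) and Slc40a1 (15.9) lay nearer WT ESC. The sets were normalized apart, and the cause of these levels was not tested.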
